A study of Mus musculus with 8 samples.

Results

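The blood-type miRNAs miR-142, miR-150 and miR-146a were followed in mouse embryonic stem cells, as the 5 mature forms mmu-miR-142a-3p, mmu-miR-142a-5p, mmu-miR-150-5p, mmu-miR-150-3p and mmu-miR-146a-5p (mmu, the mouse prefix, is left off below). They were chosen by name as miRNAs best known from blood cells, 5 of the 1915 mature miRNAs in the deposited count table, and all 5 passed the abundance filter. Small RNA was sequenced in 8 libraries, 4 groups of 2. The groups were an AGO1 line with doxycycline at 1 µg/mL (induced, A and B), the same line without the drug (uninduced, A and B), 2 lines of Ago2 knockout cells (1 and 2) and wild type E14 cells (A and B) as the control. All cells have the 129/Ola background and grew on gelatine in serum with LIF, the AGO1 line also in puromycin. The Ago2 transcript is not measured by miRNA counts. The AGO1 line carries the Ago2 knockout together with an inducible ectopic AGO1 gene, and its source name refers to knockout line 1. The promoter that drives the AGO1 gene is not given in the sources used here, nor is it said whether A and B are separate cultures, so p-values measure the spread between these libraries, which may be technical.

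AGO2 is an Argonaute protein, one of the family that holds a mature miRNA and brings it to target RNAs. A miRNA hairpin yields a 5p and a 3p arm, and usually one of them is kept as the guide while the other is degraded. miR-142 is made in nearly all blood lineages and is often used as a blood-specific marker. miR-150 is abundant in mature lymphocytes, where Myb is a known target. miR-146a is induced by NF-kB in immune cells and damps that signalling through Traf6 and Irak1.

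The sequences are shown because 2 of the 3 genes give both arms to the results and because near-identical relatives bear on how reads are assigned. Of the 5 miRNAs, 4 matched a mature entry in RefSeq (build GRCm38.p6), and capitals mark the seed, bases 2 to 8 from the 5′ end, which pairs with targets. miR-142b and miR-146b-5p are printed as the antisense and the seed relative.
miR-142a-3p: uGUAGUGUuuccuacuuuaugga
miR-142a-5p: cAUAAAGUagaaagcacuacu
miR-150-3p: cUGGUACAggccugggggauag
miR-146a-5p: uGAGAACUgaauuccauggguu
miR-142b: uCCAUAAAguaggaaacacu
miR-146b-5p: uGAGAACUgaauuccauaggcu

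No seed was shared among the 4 printed members. Among 1679 mature miRNAs of the RefSeq table, no other carried the seed of miR-142a-3p, miR-142a-5p or miR-150-3p, and 1 other, miR-146b-5p, carried that of miR-146a-5p. miR-146a-5p and miR-146b-5p match at 20 of 22 bases and differ by G18A and U21C, counted from the 5′ end with the miR-146a-5p base first. The 2 arms of miR-142a come from 1 hairpin, printed here with both arms in capitals.
Mir142 hairpin: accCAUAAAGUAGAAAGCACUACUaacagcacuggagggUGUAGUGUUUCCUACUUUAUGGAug

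On build GRCm38 with GENCODE vM21, Mir142 lies on chromosome 11 from 87756864 to 87756927, plus strand, in an intron of the long non-coding gene Mir142hg. Mir142b overlaps it on the minus strand (87756841 to 87756955). All 20 bases of miR-142b are complementary to bases 4 to 23 of miR-142a-3p, and it had 1 count in the 8 libraries together. Mir150 lies on chromosome 7 from 45121757 to 45121821, plus strand, and Mir146, the gene of miR-146a, on chromosome 11 from 43374397 to 43374461, minus strand. No other annotated gene overlaps either of them.

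Library totals ranged from 163467 (knockout line 2) to 1326638 counts (induced A), and the second shallowest was uninduced B with 292895. Abundance is given in CPM, counts relative to a library total that was multiplied by its edgeR TMM factor, so every level is relative to the rest of the library. The 14 stem cell markers of the miR-290 and miR-302 clusters all had counts in some library, but miR-302c-3p had 0 in wild type and in the knockout lines. Together, with miR-295-3p the largest of them, the 14 reached 287063 to 296913 CPM in the induced line, 233696 to 240935 in the uninduced line, 226352 to 261980 in the knockout lines and 241413 to 294734 in wild type. The sum hides unlike changes of single markers against wild type. Of the 13 tested, 3 were called higher and 2 lower in the induced line, where 19.2% and 19.8% of all tested miRNAs were. In the uninduced line 6 were higher and 3 lower (25.9% and 33.3% of all tested). In the knockout lines 3 were higher and 4 lower (25.5% and 32.2% of all tested). Among these markers miR-302d-3p and miR-290a-3p were, like the 5, called higher in all 3 groups. The log2 fold changes of miR-302d-3p were 1.59 ± 0.56 in the induced line, 3.08 ± 0.57 in the uninduced line and 2.45 ± 0.58 in the knockout lines (edgeR adjusted p = 0.0454, 0.00119 and 0.00573). Knockout lines 1 and 2 were unlike, at 227 and 40.3 CPM of miR-302d-3p. Those of miR-290a-3p were 1.27 ± 0.33, 1.20 ± 0.33 and 0.99 ± 0.33 in the same order of groups (edgeR adjusted p = 0.0126, 0.00995 and 0.0271). The label of blood-type miRNAs describes the 5 by where they are best known and not the cells. The red cell miRNA miR-451a and the myeloid miRNA miR-223-3p had 0 counts in all 8 libraries, which allows 2.57 to 15.1 CPM by library (3 counts, counting error only). The red cell miRNA miR-144-3p had 1 count in all. Of the other listed blood miRNAs only some, among them those given next, had counts in all 8 libraries. Others had 0 in some libraries, and miR-223-5p and miR-146a-3p had 0 in all 8. The red cell miRNAs miR-486a-5p and miR-486b-5p had 22.4 to 70.5 and 17.4 to 121 CPM. The white cell miRNAs miR-155-5p and miR-342-3p had 15.0 to 57.0 and 6.62 to 78.4 CPM. Each comparison was tested with edgeR's quasi-likelihood test over 475 miRNAs, with Benjamini-Hochberg adjustment and calls at an adjusted p under 0.05. Log2 fold changes are given ± SE, which is approximate.

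All 5 miRNAs were higher in Ago2 knockout cells than in wild type, and they stayed higher in the AGO1 line with and without doxycycline. Their share of all counts was 0.347 ± 0.0158% in the induced line, 0.689 ± 0.0472% in the uninduced line, 0.725 ± 0.0983% in the knockout lines and 0.176 ± 0.0171% in wild type (SD, n = 2 each). miR-150-5p was the largest part of that share in 7 of 8 libraries. The exception was knockout line 2, where miR-142a-5p was the most abundant.

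**Figure D1:**
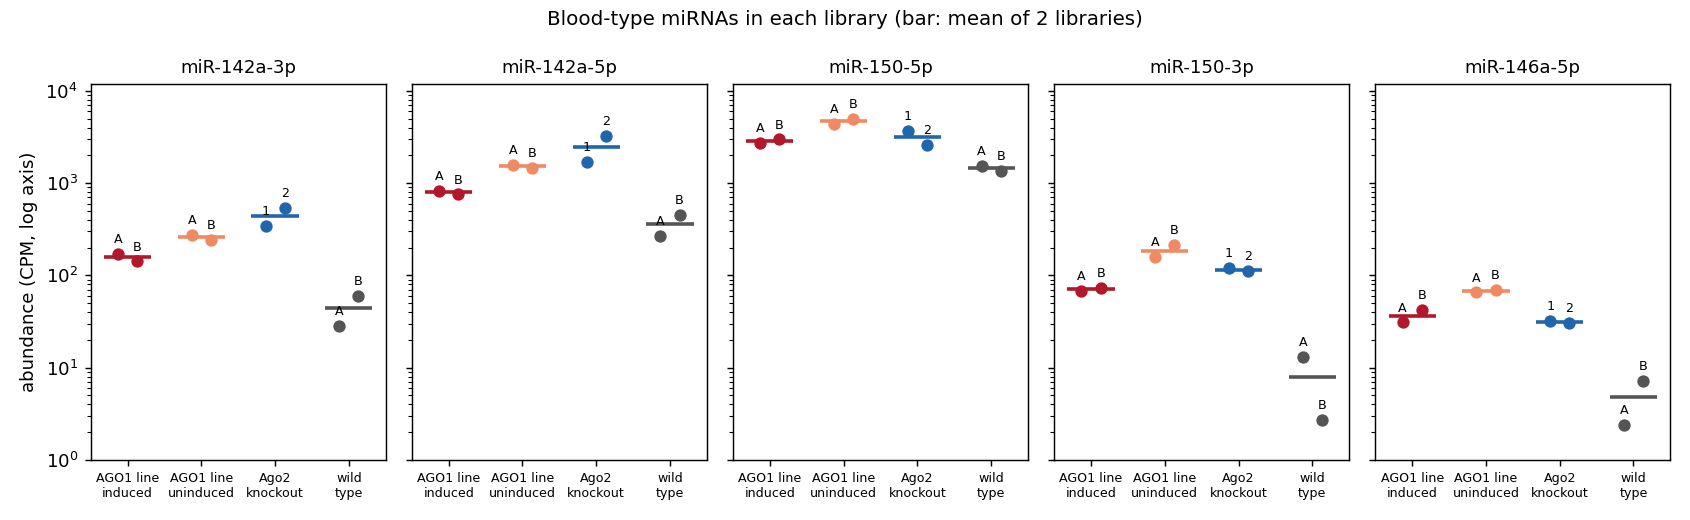
Abundance (CPM, log axis) of the 5 miRNAs in each of the 8 libraries, with 1 panel per miRNA, points labelled by replicate or line, and a bar at the mean of each group of 2. For every miRNA both wild type points lie below the 6 points of the Ago2-null groups, and the miR-142a arms are highest in the knockout lines while the other 3 are highest in the uninduced AGO1 line.

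The abundant arm of miR-142a in these cells was the 5p arm. miR-142a-5p stood at 830 and 756 CPM in induced A and B, 1568 and 1463 CPM in uninduced A and B, 1687 and 3253 CPM in knockout lines 1 and 2, and 265 and 455 CPM in wild type A and B. No 2 groups overlapped, and the order was knockout, uninduced, induced, wild type. The 2 knockout lines stood farther apart than line 1, after which the AGO1 line is named, stood from the uninduced libraries. Against wild type the log2 fold change was 2.77 ± 0.34 in the knockout lines (edgeR adjusted p = 0.000104), 2.07 ± 0.33 in the uninduced line (edgeR adjusted p = 0.000468) and 1.14 ± 0.32 in the induced line (edgeR adjusted p = 0.0197).

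miR-142a-3p, the other product of this hairpin, had 171 and 142 CPM in induced A and B, 277 and 242 CPM in uninduced A and B, 341 and 544 CPM in knockout lines 1 and 2, and 28.5 and 59.4 CPM in wild type A and B. The order of the groups was that of the 5p arm, again with no overlap between neighbours. Its log2 fold change against wild type was 3.29 ± 0.38 in the knockout lines (edgeR adjusted p = 8.56e-05), 2.54 ± 0.37 in the uninduced line (edgeR adjusted p = 0.000281) and 1.81 ± 0.37 in the induced line (edgeR adjusted p = 0.00409). The wild type values rest on 24 and 66 counts. Without wild type B, the higher of the pair, the 3 log2 fold changes became 3.92, 3.16 and 2.44. The lowest values under any alternative run were 2.97, 2.27 and 1.57 in the same order.

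miR-150-5p was the most abundant of the 5 in wild type. It reached 2712 and 2977 CPM in induced A and B, 4371 and 5018 CPM in uninduced A and B, 3680 and 2598 CPM in knockout lines 1 and 2, and 1544 and 1369 CPM in wild type A and B. The uninduced line was highest and wild type lowest, and the induced line and the knockout lines overlapped between them. It had the smallest log2 fold changes of the 5 against wild type, 1.11 ± 0.21 in the knockout lines (edgeR adjusted p = 0.00158), 1.69 ± 0.21 in the uninduced line (edgeR adjusted p = 0.000103) and 0.97 ± 0.21 in the induced line (edgeR adjusted p = 0.00488).

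miR-150-3p, the rare arm, had 67.6 and 73.8 CPM in induced A and B, 157 and 212 CPM in uninduced A and B, 120 and 111 CPM in knockout lines 1 and 2, and 13.1 and 2.70 CPM in wild type A and B. The groups ran from the uninduced line through the knockout lines and the induced line to wild type without overlap. Against wild type its log2 fold changes were 3.94 ± 0.53 in the knockout lines (edgeR adjusted p = 0.000192), 4.60 ± 0.51 in the uninduced line (edgeR adjusted p = 5.22e-05) and 3.23 ± 0.51 in the induced line (edgeR adjusted p = 0.00117). The size of these changes depends on wild type, where the libraries held 11 and 3 counts. Without wild type A they were 5.50, 6.12 and 4.79, and without wild type B 3.12, 3.77 and 2.41. All were called.

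miR-146a-5p was scarce, with 30.8 and 41.9 CPM in induced A and B, 65.3 and 69.5 CPM in uninduced A and B, 32.4 and 30.2 CPM in knockout lines 1 and 2, and 2.38 and 7.20 CPM in wild type A and B. The uninduced line stood above the other groups, the induced and knockout libraries overlapped, and wild type, with 2 and 8 counts, was lowest. The log2 fold change against wild type was 2.60 ± 0.57 in the knockout lines (edgeR adjusted p = 0.00384), 3.68 ± 0.48 in the uninduced line (edgeR adjusted p = 0.00013) and 2.80 ± 0.48 in the induced line (edgeR adjusted p = 0.00184). Without wild type B, the higher of the pair, the values were 3.62, 4.70 and 3.82. The lowest values under any alternative run were 2.28, 3.32 and 2.47 in the same order. Its 3p arm had 0 counts in all 8 libraries. The seed relative miR-146b-5p had 2.49 to 19.9 CPM over the 8 libraries, from 1 to 14 counts each, and was not called in any of these 3 comparisons (edgeR adjusted p = 0.668 in the knockout lines, 0.773 in the uninduced line and 0.992 in the induced line).

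In the knockout lines all 5 were called higher, against a background of 25.5% of tested miRNAs called higher, and all 5 stood above wild type in both libraries, as did 34.3% of tested miRNAs. In the uninduced line 5 of 5 were called higher (background 25.9%), and in the induced line 5 of 5 (background 19.2%). Both AGO1 groups also stood above wild type in every library for all 5, which held for 37.7% of tested miRNAs in the uninduced and 40% in the induced line. In wild type miR-150-3p (11 and 3 counts) and miR-146a-5p (2 and 8 counts) were under the cut of the abundance filter. They passed it only through the Ago2-null groups, where they are high, so they could hardly have been called lower than wild type. The 3 comparisons share the 2 wild type libraries, so the results of 5 of 5 are not separate pieces of evidence. Within a comparison the 5 are not independent either, since they come from 3 genes. The arms of miR-142a had a Pearson r of log2 CPM of 0.99 over the 8 libraries, and those of miR-150 of 0.95. The 5 were also chosen with earlier results of these data known. The median log2 fold change of the 5 was 2.77 in the knockout lines, 2.54 in the uninduced line and 1.81 in the induced line, against medians over all tested miRNAs of -0.13, -0.14 and 0.01. Without TMM factors the median over all miRNAs in the knockout comparison became 0.16, and all 5 were still called higher. In the induced line miR-142a-5p lost its call when TMM factors (edgeR adjusted p = 0.0505) or wild type A (edgeR adjusted p = 0.0955) were left out, and miR-150-5p lost its call without wild type B (edgeR adjusted p = 0.0539).

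**Figure D2:**
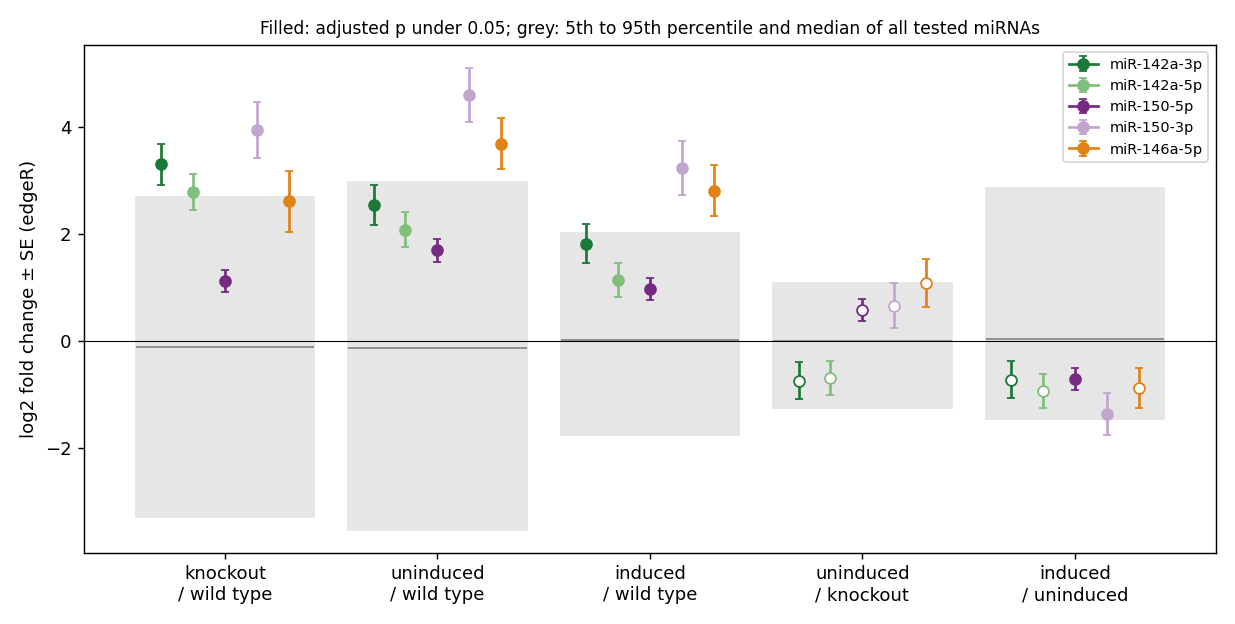
Log2 fold change ± SE (edgeR) of the 5 miRNAs in each of the 5 comparisons, filled where the adjusted p is under 0.05, over a grey box from the 5th to the 95th percentile of the 475 tested miRNAs with a line at their median. All 15 points of the 3 comparisons with wild type are above 0 and filled, and all 5 points for induced against uninduced are below 0, with those of the miR-150 arms filled.

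The uninduced AGO1 line was set against the knockout lines to ask how the line differs from its background before induction. None of the 5 was called. The log2 fold changes of the miR-142a arms were negative, -0.70 ± 0.32 for miR-142a-5p (edgeR adjusted p = 0.337) and -0.75 ± 0.35 for miR-142a-3p (edgeR adjusted p = 0.347). Those of the other 3 were positive, 0.58 ± 0.21 for miR-150-5p (edgeR adjusted p = 0.247), 0.66 ± 0.42 for miR-150-3p (edgeR adjusted p = 0.467) and 1.08 ± 0.45 for miR-146a-5p (edgeR adjusted p = 0.285). None of the 5 overlapped between the 2 groups. Of all tested miRNAs 22.1% stood higher and 22.5% lower without overlap. Over all 475 miRNAs edgeR called 0 (0%), with 72 at an unadjusted p under 0.05, while the DESeq2 Wald test called 15. Without knockout line 1, leaving the shallow line 2 as the only knockout library, 3 were called, miR-142a-5p at -1.09 (edgeR adjusted p = 8.09e-05), miR-142a-3p at -1.05 (edgeR adjusted p = 0.0113) and miR-150-5p at 0.86 (edgeR adjusted p = 0.00899). Without knockout line 2, leaving line 1, after which the AGO1 line is named, none of the 5 was called, and the value of miR-142a-5p was -0.18 (edgeR adjusted p = 0.788). Both fits assume that the lone library varies like the other groups.

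Doxycycline, which induces the ectopic AGO1 gene, went with lower levels of both arms of miR-150 in the AGO1 line. No wild type or knockout library is labelled as treated with doxycycline, so effects of the drug and of AGO1 cannot be told apart. AGO1 itself is not measured by miRNA counts. Puromycin was given to the AGO1 line alone, so it cannot be told apart from the line in comparisons with other cells. miR-150-5p fell to 2845 ± 187 CPM in the induced line, against 4694 ± 458 CPM in the uninduced line (n = 2 each), which is -0.72 ± 0.21 on the log2 scale (edgeR adjusted p = 0.0248). miR-150-3p fell to 70.7 ± 4.37 CPM, against 185 ± 38.6 CPM in the uninduced line, a change of -1.37 ± 0.40 (edgeR adjusted p = 0.027). These 2 were the calls among the 5, where 7.58% of tested miRNAs were called lower. The values of the other 3 were -0.94 ± 0.32 for miR-142a-5p (edgeR adjusted p = 0.0502), -0.73 ± 0.35 for miR-142a-3p (edgeR adjusted p = 0.14) and -0.89 ± 0.37 for miR-146a-5p (edgeR adjusted p = 0.102). In none of the 5 did the groups overlap, as in 34.1% of tested miRNAs that stood lower in both induced libraries. The median log2 fold change was -0.89 for the 5 and 0.03 over all tested miRNAs.

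The number of calls for doxycycline moved with the libraries in the fit. With any 1 of the 4 AGO1 line libraries left out, 0 of the 5 were called. Without knockout line 1 there were 4 calls, without knockout line 2 there were 5, and with only the 2 groups in the fit there were 5. The log2 fold changes themselves were negative in every fit, between -1.12 and -1.57 for miR-150-3p and between -0.59 and -0.93 for miR-150-5p.

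In the induced line all 5 remained above wild type in both libraries. The mean was 3.56 times that of wild type for miR-142a-3p, 2.20 times for miR-142a-5p, 1.95 times for miR-150-5p, 8.97 times for miR-150-3p and 7.59 times for miR-146a-5p. In the uninduced line the same ratios of means were 5.90, 4.21, 3.22, 23.4 and 14.1 in that order.

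The balance of the arms was read from counts within a library, which does not depend on its depth or scaling. The 3p arm of miR-150 made up 2.43% and 2.42% of the hairpin's counts in induced A and B, with 95% Wilson intervals of 1.96 to 3.02 and 1.93 to 3.03. It made up 3.47% (2.91 to 4.14) and 4.05% (3.18 to 5.14) in uninduced A and B. In knockout lines 1 and 2 it was 3.15% (2.38 to 4.15) and 4.09% (2.72 to 6.11). In wild type A and B it was 0.840% (0.470 to 1.50) and 0.197% (0.0670 to 0.578). All 6 Ago2-null libraries lay above both wild type libraries, and none of their intervals reached those of wild type, where the 3p arm had 11 and 3 counts. How many other hairpins separate in this way was not counted. The intervals cover counting error only, because PCR copies of a molecule cannot be told from separate molecules.

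Tested as an arm by group term over 135 hairpins, the ratio of miR-150-3p to miR-150-5p rose by 2.83 ± 0.44 on the log2 scale in the knockout lines against wild type (edgeR adjusted p = 0.000195). It rose by 2.93 ± 0.41 in the uninduced line (edgeR adjusted p = 6.83e-05) and by 2.29 ± 0.42 in the induced line (edgeR adjusted p = 0.000838). Calls towards the 3p arm were made for 20.7% of hairpins in the knockout lines, 25.9% in the uninduced line and 23.7% in the induced line. Only hairpins with both arms through the abundance filter were tested. miR-150-3p passed it only through the Ago2-null groups, where it is high, so this ratio could hardly have been called lower than wild type. With wild type A left out the 3 changes were 4.11, 4.20 and 3.57, and with wild type B left out 2.07, 2.17 and 1.54, all called. Between the uninduced line and the knockout lines the ratio differed by 0.10 ± 0.33 (edgeR adjusted p = 0.978), and between the induced and the uninduced line by -0.64 ± 0.30 (edgeR adjusted p = 0.226). Of all hairpins, 0.741% were called in the first of these 2 comparisons and 5.19% in the second.

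**Figure D3:**
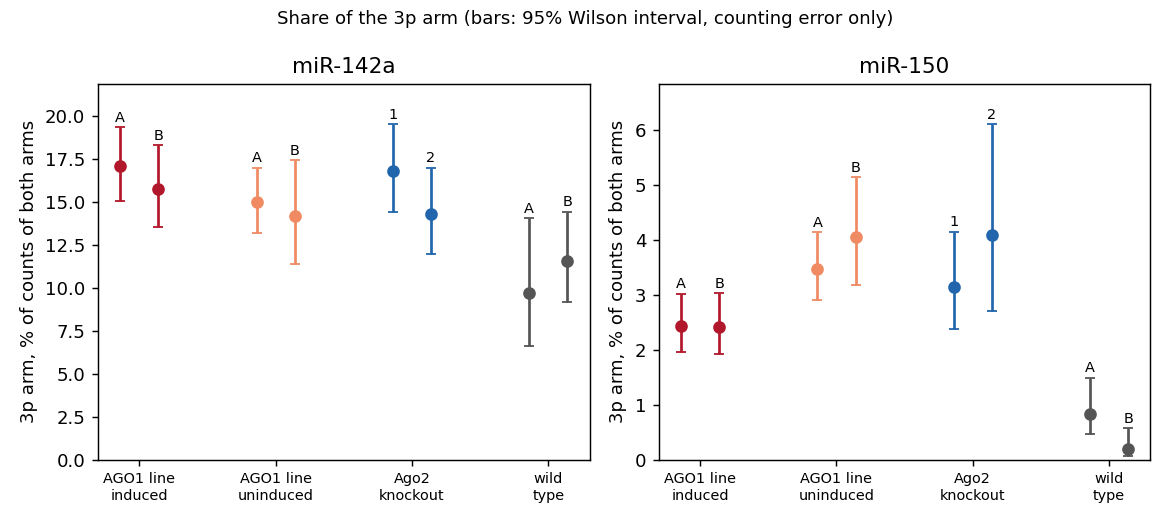
Share of the 3p arm in the counts of both arms of miR-142a (left) and miR-150 (right), in percent, for each library with its 95% Wilson interval (counting error only). For miR-150 the 2 wild type libraries lie below 1% and the other 6 between 2.42 and 4.09%, while for miR-142a the intervals of the groups meet.

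For miR-142a the 3p share was 17.1% and 15.8% in induced A and B, and 15.0% and 14.2% in uninduced A and B. It was 16.8% and 14.3% in knockout lines 1 and 2, against 9.72% and 11.6% in wild type A and B. Wild type was lowest, but the counting intervals of wild type B (9.19 to 14.4%) and of each null group met. The log2 change of the 3p to 5p ratio against wild type was 0.60 ± 0.24 in the knockout lines (edgeR adjusted p = 0.0632), 0.50 ± 0.25 in the uninduced line (edgeR adjusted p = 0.0987) and 0.70 ± 0.24 in the induced line (edgeR adjusted p = 0.032). The last call rested on each of the 4 libraries compared, with an edgeR adjusted p of 0.147 when wild type A, 0.0734 when wild type B, 0.117 when induced A or 0.0557 when induced B was left out, and DESeq2 did not make it (adjusted p = 0.0772). This ratio differed by -0.10 ± 0.22 between the uninduced line and the knockout lines (edgeR adjusted p = 0.966) and by 0.20 ± 0.22 between the induced and uninduced lines (edgeR adjusted p = 0.619).

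Of 19 other miRNAs of blood and vessel cells that were listed, 7 passed the filter, and none of the 7 was called higher than wild type in any Ago2-null group. Of all tested miRNAs, 25.5% were called higher in the knockout lines, 25.9% in the uninduced line and 19.2% in the induced line, so few of 7 would be called at these shares. In the knockout lines 2 of the 7 were called lower, with a median log2 fold change of -0.51 over the 7, where 32.2% of tested miRNAs were called lower. In the uninduced line 2 were lower (median -0.11, background 33.3%) and in the induced line 1 (median -0.43, background 19.8%). With doxycycline 1 was called higher than in the uninduced line, where 21.1% of tested miRNAs were. Those called lower were miR-342-3p, which is abundant in lymphocytes and monocytes, and miR-126a-5p, from the endothelial gene Egfl7.

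miR-342-3p had 42.8 and 49.9 CPM in induced A and B, 21.3 and 6.62 CPM in uninduced A and B, 15.0 and 35.2 CPM in knockout lines 1 and 2, and 78.4 and 73.8 CPM in wild type A and B. In each null group 36 to 44.4% of tested miRNAs stood below wild type without overlap. miR-342-3p was lower than in wild type in all 6 null libraries. Against wild type its log2 fold change was -1.75 ± 0.50 in the knockout lines (edgeR adjusted p = 0.0139), -2.21 ± 0.47 in the uninduced line (edgeR adjusted p = 0.00241) and -0.72 ± 0.37 in the induced line (edgeR adjusted p = 0.147). It rose with doxycycline by 1.50 ± 0.48 (edgeR adjusted p = 0.0388), while the 5 had negative values. The knockout call held under 11 of 15 alternatives. It ended when wild type A (edgeR adjusted p = 0.0738) or knockout line 1 (0.119, with the value at -1.10) was left out, with only the 2 groups in the fit (0.0557), and by DESeq2 (adjusted p = 0.0512). The doxycycline call held under 8 of 17 alternatives and ended when wild type A (0.0623) or B (0.0581), uninduced B (0.225), or induced A (0.0835) or B (0.159) was left out, all edgeR adjusted p. Uninduced B held 2 counts, and the value for doxycycline was 2.90 without uninduced A and 0.95 without uninduced B, while that of the uninduced line against wild type was -3.56 and -1.62, called both times. miR-155-5p, a product of activated lymphocytes and macrophages, was not called in the knockout lines (-1.19 ± 0.51, edgeR adjusted p = 0.0702).

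miR-126a-5p had 1337 and 1252 CPM in induced A and B, 1177 and 1109 CPM in uninduced A and B, 914 and 755 CPM in knockout lines 1 and 2, and 1863 and 1927 CPM in wild type A and B. It fell by 1.18 on the log2 scale in the knockout lines (SE 0.18, edgeR adjusted p = 0.000553). In the uninduced line it fell by 0.73 (SE 0.18, edgeR adjusted p = 0.00588), which was no longer called when wild type A (edgeR adjusted p = 0.0525) or uninduced B (0.211) was left out. The fall of 0.55 in the induced line (SE 0.18, edgeR adjusted p = 0.0345) lost its call with any of wild type A or B, uninduced A or B, or induced A or B left out (edgeR adjusted p between 0.128 and 0.362). The 3p arm of the same hairpin, miR-126a-3p, was not called in any of the 3 comparisons, with log2 fold changes of -0.34 ± 0.25 in the knockout lines, -0.08 ± 0.25 in the uninduced line and -0.25 ± 0.24 in the induced line (edgeR adjusted p = 0.268, 0.793 and 0.438). The red cell miRNAs miR-486a-5p and miR-486b-5p, whose sequences were not compared here, were not called in any of the 5 comparisons.

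**Figure D4:**
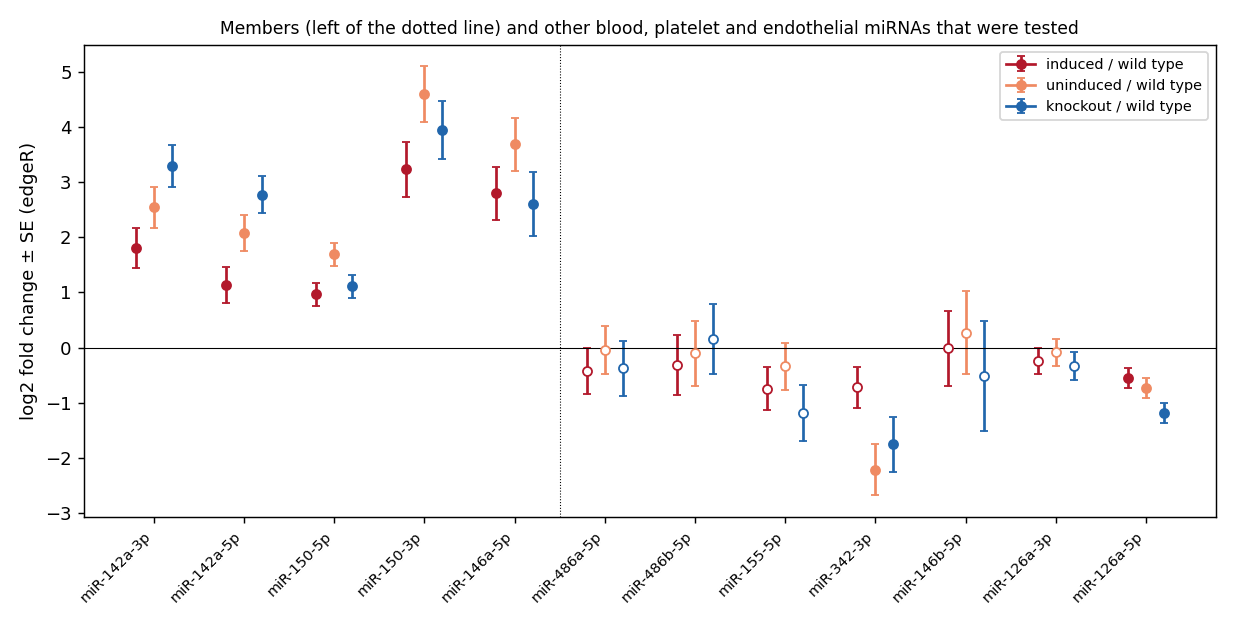
Log2 fold change ± SE (edgeR) against wild type of the 5 miRNAs, left of the dotted line, and of the 7 other blood, platelet and endothelial miRNAs that passed the filter, for the induced line, the uninduced line and the knockout lines, filled where the adjusted p is under 0.05. The 15 points at left are all above 0 and filled, and the filled points at right, those of miR-342-3p and miR-126a-5p, are all below 0.

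The summed level of the white blood cell markers miR-223-3p, miR-155-5p and miR-342-3p was 72.8 to 75.8 CPM in the induced line, 50.6 to 56.3 in the uninduced line, 29.9 to 65.5 in the knockout lines and 112 to 135 in wild type. The 5 red cell markers summed to 80.8 to 89.0 CPM in the induced line, 89.4 to 112 in the uninduced line, 39.9 to 191 in the knockout lines and 89.1 to 126.1 in wild type. The 2 endothelial arms of miR-126a summed to 1413 to 1529 CPM in the induced line, 1304 to 1377 in the uninduced line, 922 to 1079 in the knockout lines and 2089 to 2120 in wild type. The 5 fibroblast markers, of which miR-214-3p was at 0, summed to 1854 to 2033 CPM in the induced line, 321 to 374 in the uninduced line, 408 to 461 in the knockout lines and 3197 to 3752 in wild type. The white cell, endothelial and fibroblast sums were highest in wild type, where the 5 miRNAs were lowest, but single miRNAs set the last 2 of them. The endothelial sum followed miR-126a-5p, and the fibroblast sum was nearly all miR-143-3p, with 1944 and 1783 CPM in induced A and B, 252 and 291 CPM in uninduced A and B, 351 and 347 CPM in knockout lines 1 and 2, and 3147 and 3693 CPM in wild type A and B. Of the 3 fibroblast markers tested, miR-143-3p was called lower than wild type in each null group and the other 2 were not called. Those 2, miR-145a-5p and miR-199a-3p, had positive values, from 0.39 to 0.89 for miR-145a-5p and from 0.27 to 0.44 for miR-199a-3p, and the list medians were 0.27 in the induced line, 0.39 in the uninduced line and 0.33 in the knockout lines. miR-145a-5p stood higher in all 6 null libraries, at 29.3 to 45.3 CPM, than in wild type, at 20.2 and 26.1 CPM. In each null group 34.3 to 40% of tested miRNAs stood above wild type without overlap. miR-223-3p and miR-451a were at 0. Their part in the result was not tested. In these RNA pools, fewer cells of a type and less of a miRNA per cell cannot be told apart.

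Likeness across the 8 libraries was measured as Pearson r on log2 CPM, a description only, since all miRNAs share the libraries and their depth. The arms of miR-142a had a Pearson r of 0.99 with each other, those of miR-150 of 0.95, and miR-150-5p and miR-146a-5p of 0.93. miR-142a-3p and miR-150-5p had an r of 0.75. Among the 470 other tested miRNAs, those closest to miR-142a-3p were miR-219a-1-3p (r = 0.97), miR-467c-5p (0.97) and miR-466c-3p (0.97). Closest to miR-150-5p were miR-205-3p (0.96), miR-181b-5p (0.95) and miR-30c-1-3p (0.95), and closest to miR-146a-5p were miR-1247-5p (0.98), miR-92b-3p (0.95) and miR-125b-5p (0.94). All 9 stood lower in both wild type libraries than in the null libraries. They were picked for likeness to miRNAs that are lowest in wild type, so this was largely set by the choice. miR-181b-5p, miR-466c-3p and miR-1247-5p had 2 to 8 counts in wild type A, and miR-181b-5p had 2 in knockout line 2.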

How the data were processed

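Per the file headers, the deposited table gives whole-number counts per mature miRNA, 1 column for each of the 8 libraries, with no normalization by the authors. Libraries came from a TruSeq small RNA kit, per the labels' protocols, and the submitters' processing notes name Bowtie and mm10. How adapters, mismatches and multiply matching reads were handled, and which miRNA release was counted, is not given in the sources used here. Columns were named from the first of 2 header lines. The second gives the letter B to both wild type columns, so which wild type library is A rests on the first line alone.

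Counts were analysed in R 4.3.3 with edgeR 4.0.16 (filterByExpr, TMM factors, 1 quasi-likelihood fit of the 4 groups with 4 residual degrees of freedom, 2-sided F tests, Benjamini-Hochberg over 475 miRNAs per comparison). Each SE was derived from the F statistic (size of the log2 fold change over the root of F) and is approximate. The arm ratio was fitted over 135 hairpins with each library as a term. CPM values and arm shares were computed here. Both fits were tested on simulated data. DESeq2 1.42.0, other scalings and filters, the 2 groups alone, left-out libraries and a block for the library letter were alternatives. The 5 miRNAs, the lists and the rule for named miRNAs (the 5, 19 other blood miRNAs where called or at 0, seed relatives, and the 3 most alike of miR-142a-3p, miR-150-5p and miR-146a-5p) were chosen with earlier results of these data known. miR-155-5p, miR-486a-5p, miR-486b-5p, miR-126a-3p and the single stem cell and fibroblast markers are also named, after their values were seen.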

Additional observations from a re-analysis of the deposited data

How the results depend on the processing

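Against wild type, the 5 fold changes of the knockout lines and the 5 of the uninduced line were called and positive under every alternative run (15 for the knockout, 17 for the uninduced line). For uninduced against knockout, the number called was 0 to 3 with 1 library left out and 0 under the other alternatives. For induced against uninduced, it was 2 in the fit as reported, 0 to 5 with 1 library left out, 5 with only the 2 groups, 4 with a replicate block for the library letter, and 4 without the 2 shallowest libraries (knockout line 2 and uninduced B). The block fit holds the 6 lettered libraries, and in these without the block the number was 5, so leaving out the knockout libraries raised the number without the block. The fits of these 6 and without the 2 shallowest were chosen after the data were seen. The cause of the other moves was not tested. Differences of A and B correlated at 0.24 between uninduced and induced, 0.08 between wild type and uninduced and -0.01 between wild type and induced over 475 miRNAs, so the letters are not taken to pair libraries, and the knockout lines carry none. The block changed no call against wild type. Between uninduced and knockout, the arm ratio change with 1 library left out ran from -0.24 to 0.038 for miR-142a and from -0.14 to 0.25 for miR-150. Its sign turned without knockout line 1 for both (0.038 and -0.14) and without uninduced B for miR-150 (-0.01). Over all tested miRNAs, calls in knockout against wild type were 121 higher and 153 lower, but 155 and 111 without TMM factors, and for induced against uninduced 100 and 36, but 83 and 64. With 1 library left out, the calls numbered 75 to 258 for induced against wild type (185 as reported), 57 to 200 for induced against uninduced (136 as reported, 203 with the 2 groups alone) and 0 to 61 for uninduced against knockout. The doxycycline call of miR-342-3p also ended under DESeq2 (adjusted p = 0.111), and with edgeR under DESeq2 size factors (adjusted p = 0.0516), without TMM factors (0.0695) and without the 2 shallowest libraries (0.063). The call of miR-126a-5p in the induced line against wild type ended without the filter (edgeR adjusted p = 0.121) and without the 2 shallowest libraries (0.0896). Depth limits miR-146a-5p and miR-150-3p most, at 10 and 14 counts in wild type.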
